A study of Homo sapiens with 4 samples.

Results

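The genes described here encode 5 families of BTB-domain proteins, KLHL, KBTBD, KCTD, BTBD and RHOBTB, measured by RNA-seq in DU145 cells that carry either wild-type SPOP or the F133V form of SPOP. Members were chosen by name: every protein-coding gene whose current symbol is 1 of these 5 stems followed by a number. The rule found 82 of the 60614 genes counted, namely 37 KLHL, 9 KBTBD, 21 KCTD, 12 BTBD and 3 RHOBTB genes. ABTB3, once named BTBD11, and KBTBD11-OT1, which RefSeq lists as noncoding, are outside it. DU145 is an established human prostate cancer line, grown here in EMEM with serum, and each genotype had 2 libraries. How the F133V form was brought into the cells is not in the labels, nor whether those cells are 1 clone or a pool, or carry added SPOP. Nothing there ties the replicates to separate cultures either. The p-values therefore reflect the spread of these libraries alone, and that spread may be technical.

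A BTB domain lets a protein dimerise and dock onto the cullin CUL3. In a CUL3 ubiquitin ligase the BTB protein is the adaptor: its second domain, a Kelch propeller in the KLHL and KBTBD proteins, holds the substrate, while CUL3 and the RING protein RBX1 bring the ubiquitin-loaded enzyme. SPOP is an adaptor of the same kind with a MATH domain in place of the propeller, so the genes described here encode proteins that can compete with SPOP for the same cullin. Not every member is a proven CUL3 adaptor, and several KCTD proteins act on G proteins or transcription factors instead. All values below, also those of substrates, are of mRNA, and neither protein levels nor ubiquitination were measured.

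Each library had from 35173245 to 39642063 reads assigned to genes. The epithelial markers KRT8, KRT18, KRT19, EPCAM and CDH1 summed to 2242 and 2441 CPM in the F133V libraries and to 1835 and 1833 CPM in the wild-type libraries, where CPM is the read count relative to library size, scaled by TMM. All 5 rose in both of the fits described below. The log2 fold changes of KRT8, KRT18 and KRT19 were 0.34, 0.31 and 0.41. In the fit adjusted for GC content they were only 0.12, 0.08 and 0.09. EPCAM had 0.30 without and 0.29 with that adjustment, and CDH1 0.45 and 0.45. Of the luminal prostate markers, KLK3 had 0 reads in all 4 libraries and TMPRSS2 at most 15 reads in a library. Summed blood markers stood at 3.73 and 4.17 CPM in the F133V libraries against 1.43 and 2.05 CPM, with CD79A as the main difference and CD3E at 0 and PTPRC at no more than 1 read in every library. Summed endothelial markers were at most 0.708 CPM, and summed fibroblast markers were from 6.37 to 8.33 CPM with DCN at 0. The part of these differences in the results below was not tested, and in bulk RNA fewer cells of a type and less RNA per cell cannot be told apart. SPOP stood at 1171 and 1151 CPM in F133V replicates 1 and 2 and at 844 and 906 CPM in the wild-type replicates, so SPOP mRNA was higher in both F133V libraries. A count per gene takes both alleles together, and the genotype could not be checked from it. CUL3 was at 82.7 and 68.1 CPM in the F133V libraries and at 114 and 113 CPM in the wild-type libraries, a log2 fold change of -0.59 ± 0.077 (SE). After adjustment for GC content, explained below, that difference was 0.07 and did not pass the test (edgeR, BH-adjusted p = 0.168).

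DU145 cells expressed most of the adaptor genes. Of the 82 members, 62 passed the filter on low counts and were tested, and 60 of these had a mean of at least 1 CPM in both genotypes. The remaining 20 had between 0 and 46 reads over all 4 libraries, and at most 19 in a library. BTBD18, KBTBD13, KCTD8, KLHL1 and KLHL40 had 0 reads in every library, which allows a level of up to 0.0764 to 0.085 CPM (3 counts in a library, counting error only). KLHL40 and KLHL41, KBTBD13 and KLHL31 are known from muscle, KLHL1 and KCTD8 from neurons, KLHL10 from testis and KLHL6 from B cells. Of these, KLHL31 alone was tested.

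Scaled to exon length, BTBD1 had the highest level of the 62 members in the mean over both genotypes. It was first in wild-type cells, while in F133V cells BTBD2, KLHL5 and BTBD6 had higher means. BTBD1, which together with BTBD2 is known to bind topoisomerase I, was at 30.0 and 27.8 CPM per kilobase of exon in the F133V libraries and at 39.6 and 40.5 in the wild-type libraries. KLHL5 followed at 30.2 ± 1.96 in F133V and 32.2 ± 0.914 in wild-type cells, then BTBD2 at 33.1 ± 1.62 and 25.4 ± 0.136, and BTBD6 at 29.3 ± 1.32 and 28.3 ± 0.135 (CPM per kilobase, SD, n = 2 each). In F133V cells the values of BTBD1, KLHL5 and BTBD6 overlapped, so their order there is within the replicate spread. Exons of other genes cover 2.59% of the BTBD1 exons, 8.71% of those of KLHL5, 18% of BTBD2 and 26.2% of BTBD6. Some reads there may not have been assigned, so these levels and their order may be off. KCTD20 led the KCTD family in the mean over both genotypes with 22.3 ± 1.08 and 27.4 ± 1.18, although KCTD9 was higher in wild-type cells, at 18.8 and 28.3. On the same mean, RHOBTB3 led the RHOBTB family with 10.1 and 16.4, and KBTBD2 the KBTBD family with 8.55 and 10.7. With the length of the longest transcript in place of all exons, BTBD2 ranked 1, KLHL5 2 and BTBD1 3, so the first 3 places depend on which length is used. At the other end, KLHL32 had 0.0914 and 0.142 and KBTBD8 0.0881 and 0.281 CPM per kilobase.

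**Figure D1:**
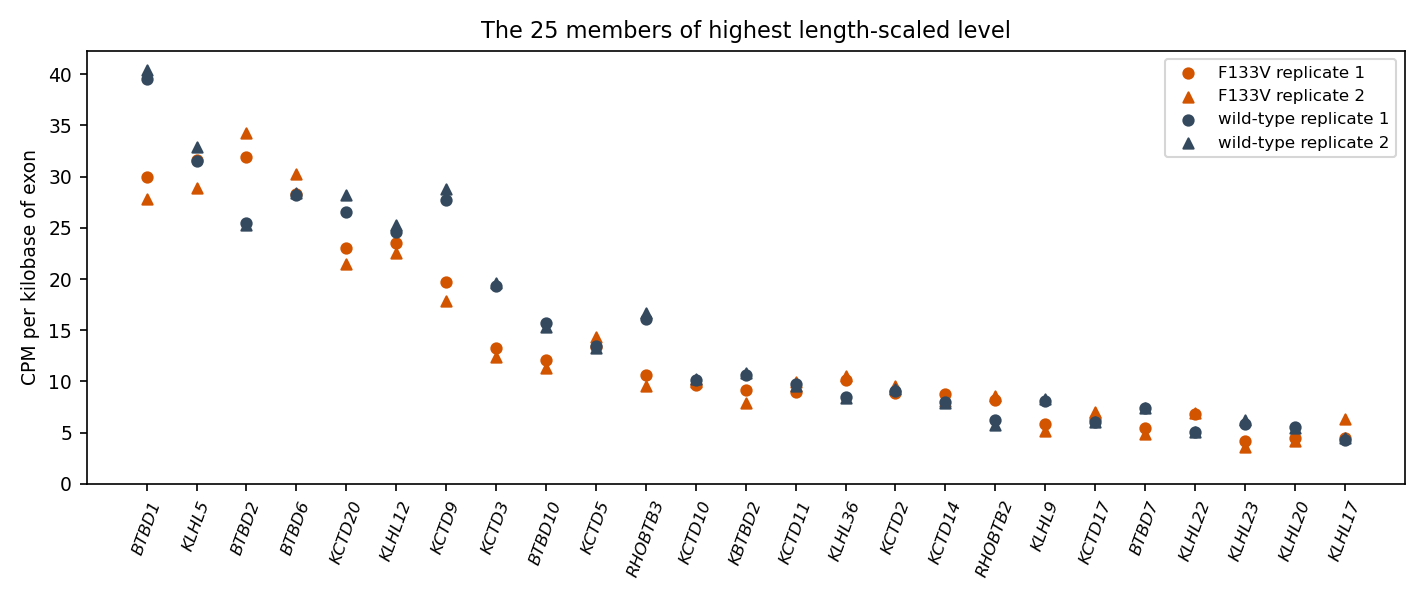
CPM per kilobase of exon (vertical axis) of the 25 members of highest mean level, with a point for each of the 4 libraries. BTBD1, KCTD20, KCTD9, KCTD3 and RHOBTB3 lie lower in both F133V libraries and BTBD2 and RHOBTB2 higher.

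In the unadjusted comparison 11 of the 62 tested members rose in F133V cells, 25 fell and 26 did not pass (edgeR quasi-likelihood test, BH-adjusted over all tested genes). Called members thus made up 58.1%, against 54.8% of all 17539 genes tested. The falls outnumbered the rises among the members, 25 to 11, whereas over all genes 27.2% rose and 27.6% fell. The median log2 fold change of the members was -0.09, beside 0.02 for all genes tested. By family, 6 KLHL genes rose and 11 of 26 fell, 1 KBTBD gene rose and 3 of 7 fell, 2 KCTD genes rose and 5 of 18 fell, 1 BTBD gene rose and 5 of 8 fell, and 1 RHOBTB gene rose and 1 of 3 fell. The values of the 2 genotypes did not overlap for 53 of the 62 members, against 78% of all genes. They did not overlap on the same side in both fits, the second with the GC adjustment explained below, for 31 members, against 51.7% of all genes. The surplus of falls depended on scaling: with upper-quartile scaling, which moved the median of all genes from 0.02 to 0.13, 18 members were higher and 21 lower.

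These fold changes followed the base composition of the transcripts. Among the 20 members of lowest GC content in the longest transcript, from 34.3% to 42.6%, 1 rose and 14 fell. Among the 20 of highest GC content, from 52.4% to 65.0%, 7 rose and 0 fell. Spearman's rank correlation between log2 fold change and GC content was 0.71 across the 62 members, a description over genes that share the same 4 libraries. The same relation separated the F133V replicates from each other: replicate 2 was below replicate 1 for 19 of the 20 members of low GC content and for 3 of the 20 of high GC content (rank correlation 0.61). In the wild-type libraries replicate 2 was below replicate 1 for 7 and 8 of these members (rank correlation -0.17). The median member of low GC content differed by -0.13 on the log2 scale between the F133V replicates and by -0.38 between genotypes. Whether library preparation had a part in the genotype difference was not tested. The start of the coding sequence is printed for 2 members of unlike composition. KLHL28 and KLHL17 are printed because they have the lowest and the highest GC content among the members whose call was lost on adjustment (G and C in capitals, the first 90 coding bases, GENCODE on GRCh38, KLHL28 in exon 2 at chr14:44945839-44945928 on the minus strand, KLHL17 in exon 1 at chr1:960694-960783 on the plus strand).
KLHL28: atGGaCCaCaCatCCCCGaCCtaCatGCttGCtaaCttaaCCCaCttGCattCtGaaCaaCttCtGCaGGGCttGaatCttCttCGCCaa
KLHL17: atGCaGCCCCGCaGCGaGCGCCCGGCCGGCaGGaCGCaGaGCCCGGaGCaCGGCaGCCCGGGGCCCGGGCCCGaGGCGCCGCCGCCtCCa
In these stretches 47.8% of the bases of KLHL28 and 83.3% of those of KLHL17 are G or C. The longest transcripts, by which the 2 were picked, have less, 34.4% and 65.0%. KLHL28 was at 10.7 and 8.81 CPM in the F133V libraries and 15.9 and 15.9 CPM in the wild-type libraries, and KLHL17 at 15.3 and 21.5 CPM against 14.5 and 15.3 CPM. KLHL28 lay lower in both F133V libraries. KLHL17 was clearly higher only in F133V replicate 2, since F133V replicate 1, at 15.34 CPM, barely exceeded wild-type replicate 2, at 15.30 CPM. The F133V replicates of each gene also lay apart.

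**Figure D2:**
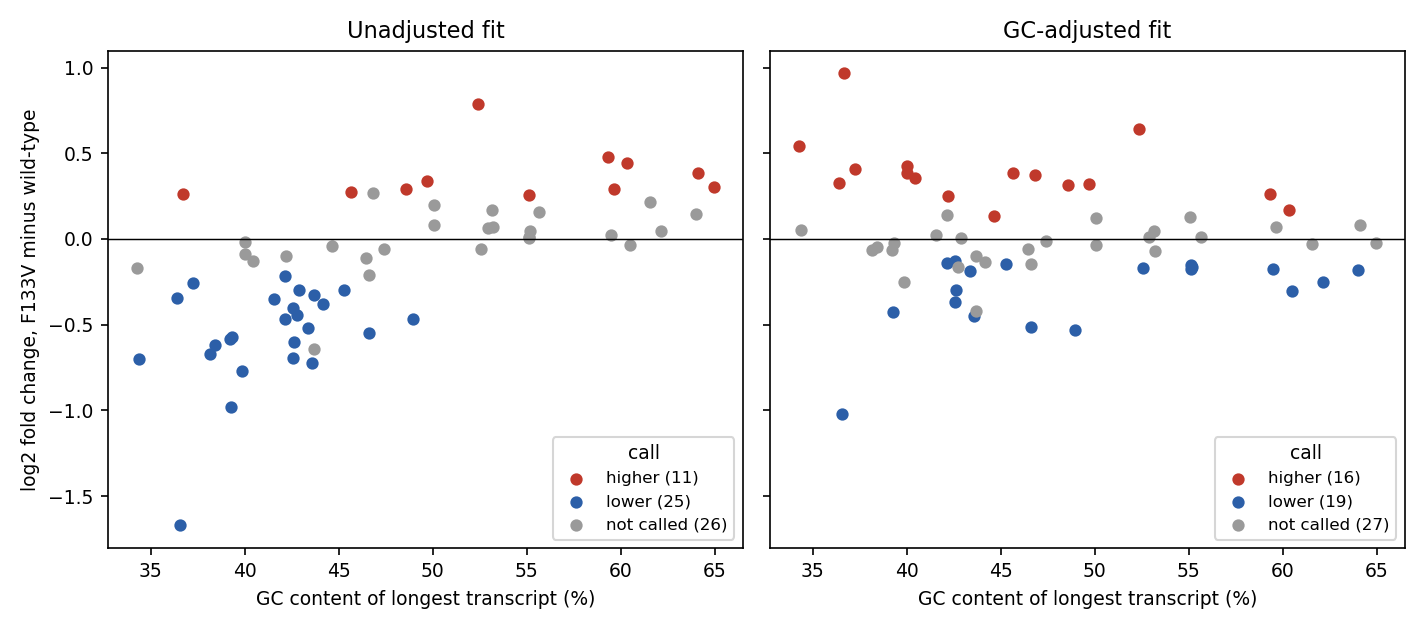
Log2 fold change of each of the 62 tested members (vertical axis) against the GC content of its longest transcript in percent, without (left) and with (right) the GC adjustment, with colours for the call. On the left 7 of the 20 members of highest GC content are higher and 0 lower, and on the right 3 are higher and 8 lower.

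**Figure D3:**
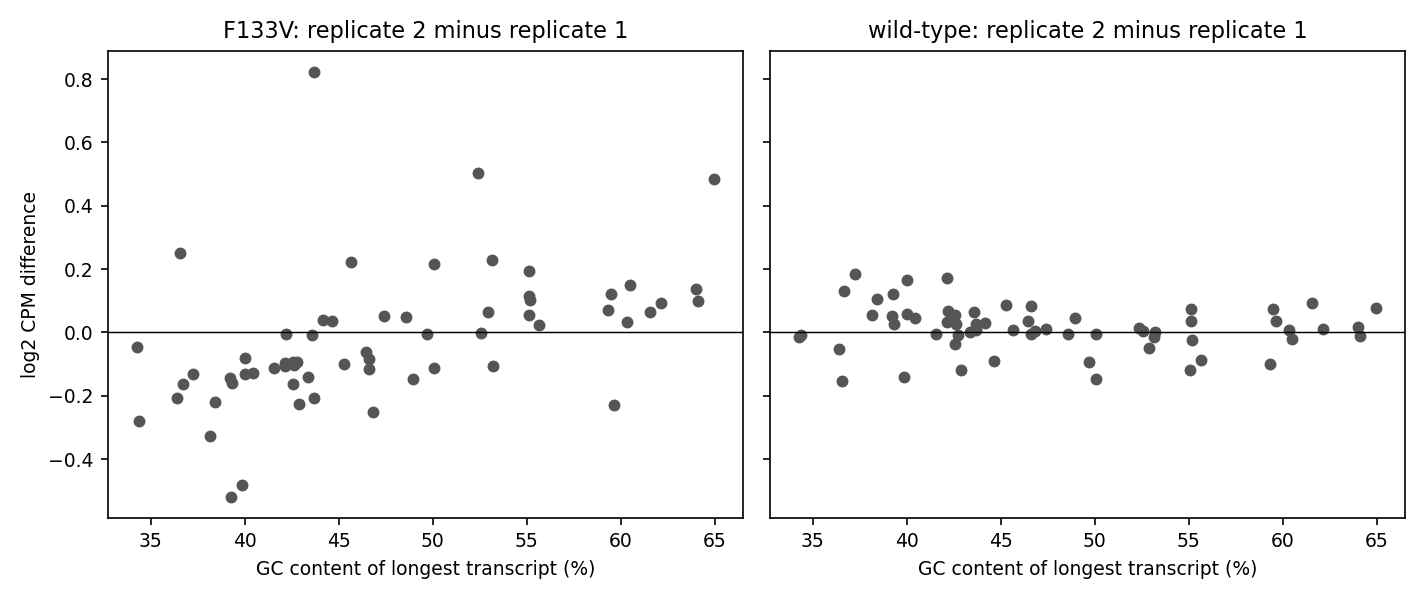
Difference in log2 CPM between replicate 2 and replicate 1 of the same genotype (vertical axis) for each of the 62 members, against GC content in percent. The F133V replicates (left) differ along GC content with a rank correlation of 0.61, the wild-type replicates (right) with a rank correlation of -0.17.

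Each member was therefore also tested in a fit with an offset for transcript GC content and length. In it 16 members were higher and 19 lower, 56.5% of the 62, against 52.1% of all genes fitted. The adjusted median of the members was -0.03, beside 0.02 for all genes. The sign was the same in both fits for 40 members. Both call and sign were the same for 18 members, 7 higher and 11 lower, which is 29.03% of the 62, against 32.6% of all genes, a share near the background. A further 16 calls were lost on adjustment, 15 were made only with it, 2 turned direction and 11 members were called in neither fit. The calls lost were 12 falls, of members with a median GC content of 40.7%, and 4 rises, of members with a median of 61.9%.

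**Figure D4:**
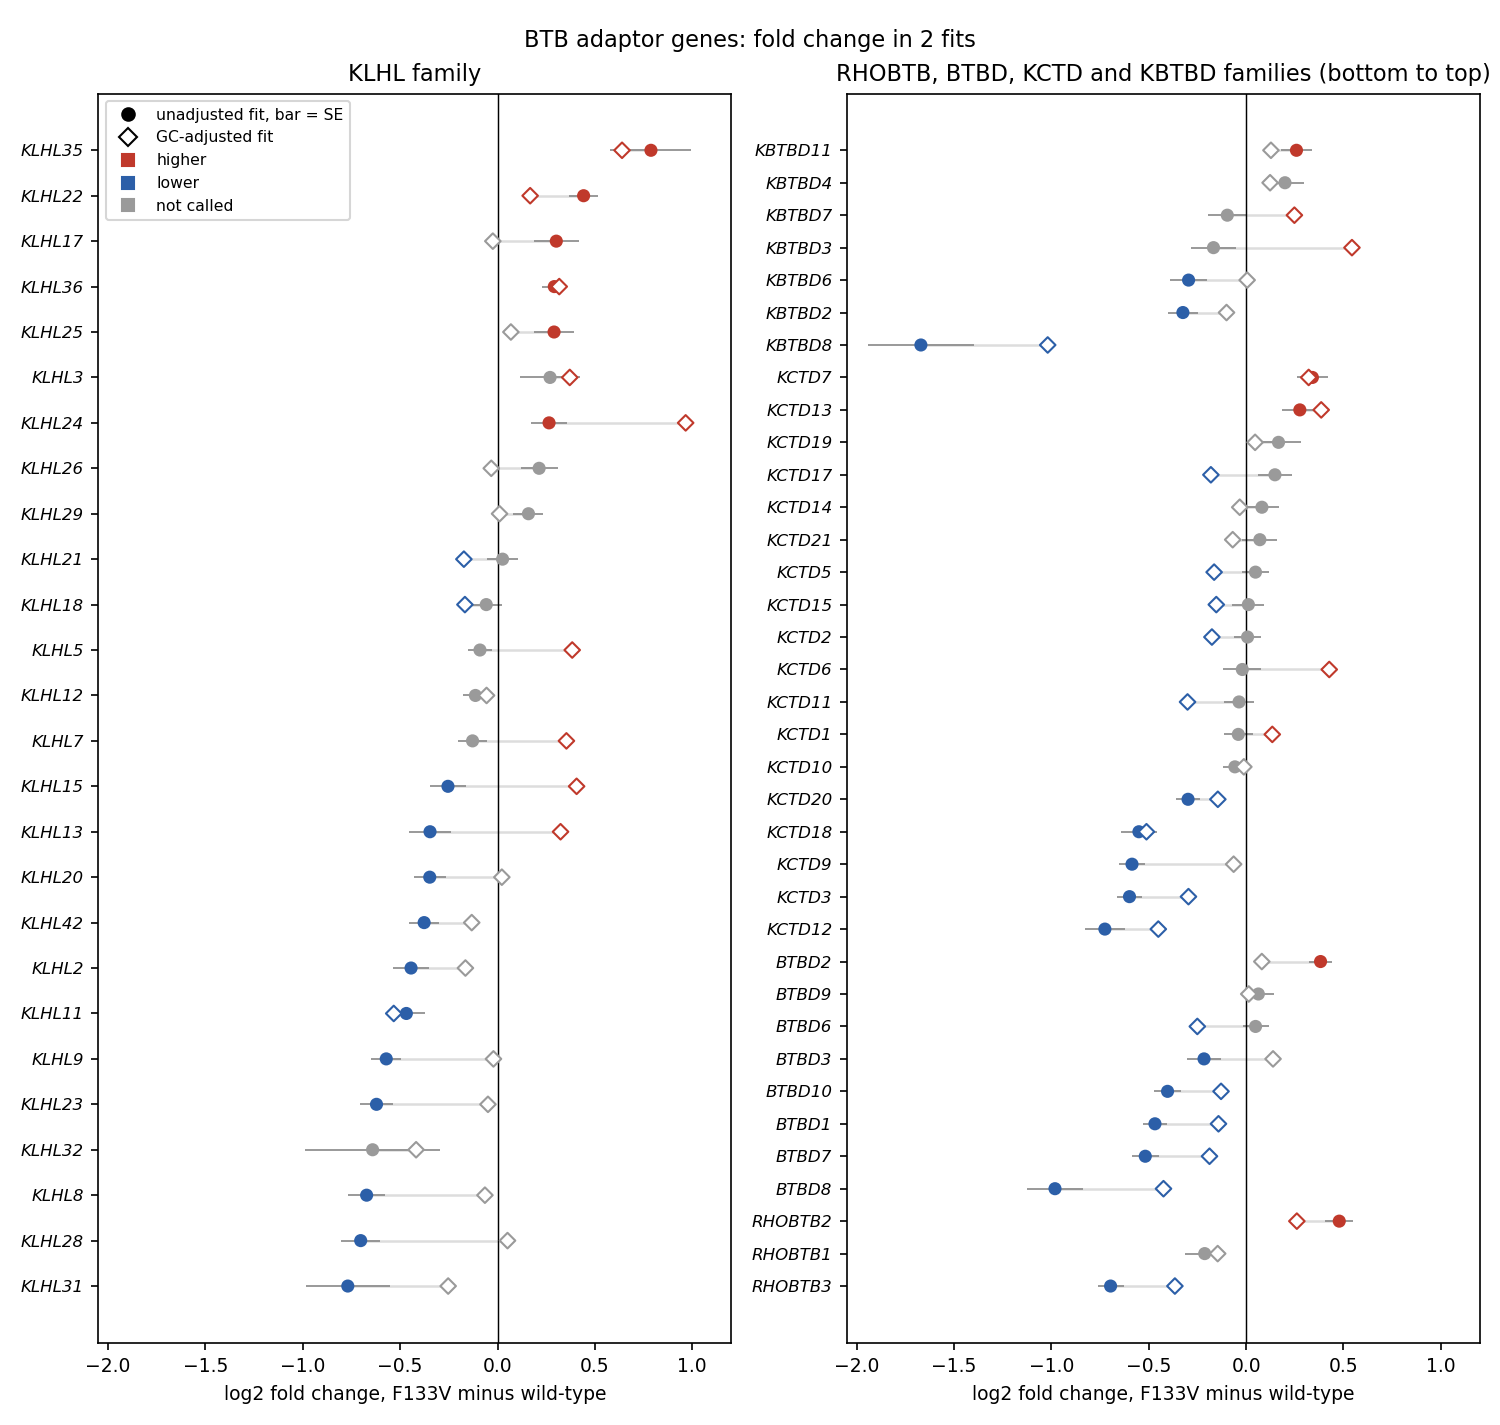
Log2 fold change (F133V minus wild-type) of every tested member by family, with filled circles and SE bars for the unadjusted fit and open diamonds for the GC-adjusted fit, red where called higher, blue where called lower and grey where not called. KLHL24, KLHL13, KLHL15 and KBTBD3 move up on adjustment, and KBTBD8 stays lowest in both fits.

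RHOBTB genes encode atypical small GTPases with BTB domains, and 2 of the 3 changed in both fits, in opposite directions. Over all genes 32.6% were called with the same sign in both fits. RHOBTB3, a Golgi-associated ATPase of the family (ENSG00000164292.13, chromosome 5, 95713522 to 95824383, plus strand), was at 94.3 and 84.3 CPM in F133V replicates 1 and 2 and at 142 and 147 CPM in the wild-type replicates. Both F133V libraries were below both wild-type libraries. RHOBTB3 fell with a log2 fold change of -0.70 ± 0.067 (SE), and -0.37 ± 0.038 after GC adjustment (edgeR, BH-adjusted p = 3.301e-08 and 9.547e-11). RHOBTB2, a candidate tumour suppressor also called DBC2 (ENSG00000008853.17, chromosome 8, 22987417 to 23020199, plus strand), was at 53.8 and 56.5 CPM in the F133V libraries and at 40.9 and 38.2 CPM in the wild-type libraries. It rose by 0.48 ± 0.072, and by 0.26 ± 0.048 after adjustment (edgeR, BH-adjusted p = 1.131e-05 and 1.33e-05). Exons of other genes on the opposite strand cover 28.7% of the RHOBTB2 exons, so some of its reads cannot be assigned with certainty. RHOBTB1 was at 8.80 and 8.30 CPM in the F133V libraries against 9.93 and 9.89 CPM, and passed neither test. Without each library in turn, RHOBTB2 had unadjusted log2 fold changes from 0.42 to 0.53 and adjusted ones from 0.207 to 0.315. RHOBTB3 had from -0.81 to -0.62 unadjusted and from -0.43 to -0.34 adjusted.

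The KCTD family gave 6 of the 18 members called in both fits, 2 rises and 4 falls. This is 33.3% of the KCTD genes tested, near the 32.6% of all genes. KCTD3, which is known to promote surface expression of the channel HCN3 (ENSG00000136636.13, chromosome 1, 215567392 to 215621807, plus strand), was at 65.5 and 61.1 CPM in the F133V libraries and at 95.0 and 96.9 CPM in the wild-type libraries. It fell by 0.60 on the log2 scale, and by 0.30 after adjustment (edgeR, BH-adjusted p = 2.262e-07 and 5.189e-08). KCTD12, an auxiliary subunit of GABA-B receptors (ENSG00000178695.6, chromosome 13, 76880166 to 76886390, minus strand), was at 6.13 and 6.09 CPM against 9.88 and 10.3 CPM, so that both F133V values lay below both wild-type values. Its log2 fold change was -0.73 ± 0.10, and -0.45 after adjustment (edgeR, BH-adjusted p = 6.276e-06 and 0.0001099). KCTD8 and KCTD16, the other GABA-B auxiliary subunits of the family, were not tested for want of reads, and the receptor subunit GABBR1 had a log2 fold change of 0.00 without adjustment and was called lower with it, at -0.18 (edgeR, BH-adjusted p = 0.984 and 0.0329). KCTD18 was at 11.0 and 10.1 CPM in the F133V libraries and at 15.0 and 15.9 CPM in the wild-type libraries. Its fold change hardly moved on adjustment, from -0.55 ± 0.092 to -0.51 ± 0.077 (edgeR, BH-adjusted p = 3.93e-05 and 4.143e-07). KCTD20, a positive regulator of AKT, was at 144 and 134 CPM against 166 and 176 CPM, a log2 fold change of -0.30 that was -0.15 after adjustment. Without wild-type replicate 2 its unadjusted fold change was -0.26 and did not pass (edgeR, BH-adjusted p = 0.08196), nor did the adjusted value of -0.11.

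KCTD7, in which mutations cause a progressive myoclonic epilepsy, was at 26.7 and 26.6 CPM in the F133V libraries and at 21.7 and 20.4 CPM in the wild-type libraries, a log2 fold change of 0.34 ± 0.079 and of 0.32 after adjustment (edgeR, BH-adjusted p = 0.001074 and 1.349e-05). KCTD13, which with KCTD10 and TNFAIP1 targets RHOA for degradation, was at 14.7 and 17.2 CPM against 13.1 and 13.2 CPM, a log2 fold change of 0.28 ± 0.094 and of 0.39 after adjustment (edgeR, BH-adjusted p = 0.01703 and 5.733e-05). Both rises were small. In both genes each F133V library lay above each wild-type library, and the genotypes did not overlap for 78% of all genes tested. Exons of other genes cover 6.66% of the KCTD7 exons and 7.34% of those of KCTD13. KCTD7 did not pass without wild-type replicate 2, where its unadjusted value was 0.29. Unadjusted, KCTD13 did not pass without F133V replicate 2 (0.16), without wild-type replicate 1 (0.27) or without wild-type replicate 2 (0.28). In the adjusted fit KCTD7 and KCTD13 were called higher without each library in turn. KCTD10 and TNFAIP1 passed in neither fit, at -0.06 and 0.06, and RHOA was at 459 and 477 CPM in the F133V libraries against 434 and 432 CPM, a log2 fold change of 0.11 that passed only after adjustment.

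Other KCTD genes with shared roles, grouped after their values were seen, did not change in the unadjusted fit. KCTD2, KCTD5 and KCTD17, which bind G protein beta-gamma dimers, had unadjusted values of 0.01, 0.05 and 0.15. After adjustment they had -0.18, -0.16 and -0.18, so that 3 of 3 were called lower only in the second fit. In that fit 24.5% of all genes were called lower. These 3 are among the 20 members of highest GC content, of which 8 were called lower with the adjustment. KCTD6, KCTD11 and KCTD21, antagonists of Hedgehog signalling that act on the deacetylase HDAC1, had unadjusted values of -0.02, -0.04 and 0.07. After adjustment KCTD6 was called higher at 0.43 and KCTD11 lower at -0.30. KCTD1 and KCTD15, repressors of AP-2 transcription factors, moved to 0.13 and -0.15. All of these calls rest on the GC offset. KCTD9, the member most affected by it among well-expressed KCTD genes, was at 86.6 and 78.4 CPM in the F133V libraries and at 122 and 126 CPM in the wild-type libraries, yet its log2 fold change went from -0.59 to -0.06.

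In the BTBD family 4 of the 8 tested genes fell in both fits, against 14.9% of all genes. BTBD7, a regulator of epithelial branching (ENSG00000011114.15, chromosome 14, 93237550 to 93333092, minus strand), was at 61.4 and 55.6 CPM in the F133V libraries and at 83.8 and 83.8 CPM in the wild-type libraries. Its log2 fold change was -0.52 ± 0.069, and -0.19 after adjustment (edgeR, BH-adjusted p = 2.451e-06 and 0.0001877). BTBD1 was at 125 and 116 CPM against 165 and 169 CPM, with -0.47 and, after adjustment, -0.14. BTBD10, an activator of AKT, was at 42.3 and 39.6 CPM against 54.9 and 53.5 CPM, with -0.40 and -0.13. BTBD8 was at 3.98 and 2.78 CPM against 6.42 and 6.98 CPM, with -0.98 ± 0.14 and -0.42 ± 0.13. In all 4 genes the genotypes did not overlap, as for 78% of all genes tested, and the F133V replicate with the lower value was replicate 2. In the adjusted fit BTBD8 did not pass without F133V replicate 2, BTBD10 without either wild-type replicate, and BTBD1 without wild-type replicate 2. BTBD2, close kin of BTBD1, was at 190 and 203 CPM in the F133V libraries and at 151 and 150 CPM in the wild-type libraries. Its rise of 0.38 ± 0.060 became 0.08 after adjustment and no longer passed (edgeR, BH-adjusted p = 1.98e-05 and 0.05298). BTBD1 and BTBD2 transcripts hold 42.2% and 64.1% G and C.

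KBTBD8, an adaptor known to mark the ribosome biogenesis factors NOLC1 and TCOF1 with ubiquitin (ENSG00000163376.11, chromosome 3, 66998307 to 67011210, plus strand), had the lowest fold change of all members in both fits, from few reads. It had 14 and 16 reads in the F133V libraries and 55 and 45 reads in the wild-type libraries, which is 0.381 and 0.453 CPM against 1.40 and 1.26 CPM. The log2 fold change was -1.67 ± 0.27, and -1.02 ± 0.29 after adjustment (edgeR, BH-adjusted p = 2.872e-05 and 0.003157). Without F133V replicate 1 the adjusted value was -0.84 and did not pass (edgeR, BH-adjusted p = 0.05698). NOLC1 and TCOF1 were also lower in both fits: NOLC1 was at 269 and 264 CPM in the F133V libraries and at 370 and 358 CPM in the wild-type libraries, a log2 fold change of -0.45 and of -0.44 after adjustment, and TCOF1 had -0.18 and -0.35. KBTBD2, which controls the level of the PI3-kinase subunit encoded by PIK3R1, was at 45.7 and 39.6 CPM against 52.9 and 53.9 CPM, a fall of 0.32 on the log2 scale that was lost on adjustment. KBTBD6 and KBTBD7 together target the RAC1 activator TIAM1. KBTBD6 was called lower only without adjustment (-0.30), KBTBD7 higher only with it (0.25), and TIAM1 had 0.02. KBTBD6 and KBTBD7 were the only pair of members whose transcripts share stretches of 75 bases, the read length, over 7.15% and 7.83% of their positions. Reads from those stretches cannot be assigned to 1 of the 2 genes.

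Among the 26 tested KLHL genes, 4 rose and 1 fell in both fits, a share of 19.2% against 32.6% of all genes. KLHL36 (ENSG00000135686.13, chromosome 16, 84648525 to 84667686, plus strand) was at 102 and 105 CPM in the F133V libraries and at 84.5 and 84.2 CPM in the wild-type libraries. Its GC content, 48.6%, is near the median of all genes, and its log2 fold change was 0.29 ± 0.063 without and 0.32 ± 0.039 with the adjustment (edgeR, BH-adjusted p = 0.0005719 and 5.578e-09). KLHL24, known for the ubiquitination of keratin 14 in skin (ENSG00000114796.16, chromosome 3, 183635568 to 183684477, plus strand), was at 18.2 and 16.3 CPM against 13.7 and 15.0 CPM. Its unadjusted log2 fold change of 0.26 ± 0.091 was the only rise among the 20 members of lowest GC content. With a transcript of 36.7% G and C it became 0.97 ± 0.069 on adjustment, the highest adjusted value of all members (edgeR, BH-adjusted p = 0.01836 and 6.008e-15). Adjusted levels of KLHL24 were 21.8 and 22.2 CPM in the F133V libraries and 10.8 and 11.7 CPM in the wild-type libraries. KRT14, the keratin 14 gene, was not tested for want of reads. Unadjusted, KLHL24 did not pass without F133V replicate 1 (0.15), wild-type replicate 1 (0.20) or wild-type replicate 2 (0.32), and KLHL36 did not pass without wild-type replicate 1 (0.29) or 2 (0.28). Adjusted, KLHL24 passed without each library in turn, with values from 0.91 to 1.02.

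KLHL22, which has roles in mitosis through the kinase PLK1 and in nutrient signalling through DEPDC5, was at 31.5 and 32.3 CPM in the F133V libraries and at 23.4 and 23.5 CPM in the wild-type libraries. It rose by 0.44 ± 0.076, and by 0.17 ± 0.056 after adjustment (edgeR, BH-adjusted p = 5.154e-05 and 0.01097). Exons of other genes cover 14.1% of its exons. The adjusted call was lost without F133V replicate 1 or either wild-type replicate. KLHL35 had 66 and 90 reads in the F133V libraries and 49 and 45 reads in the wild-type libraries, a log2 fold change of 0.79 ± 0.21 and of 0.64 after adjustment. Without F133V replicate 2 it did not pass in either fit, at 0.52 and 0.40. KLHL11, known as an autoantigen in paraneoplastic brainstem disease, was at 9.70 and 8.76 CPM against 12.6 and 13.0 CPM. It fell by 0.47 on the log2 scale, and by 0.53 after adjustment (edgeR, BH-adjusted p = 0.0003571 and 9.739e-07). A called change of at least 1.5-fold was found for 11 members without adjustment and for 3 with it, against 22.6% and 11.6% of all genes. KLHL35 and KBTBD8 were the 2 members with such a change in both fits.

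The mitotic KLHL adaptors, grouped after their values were seen, did not move together. KLHL9, KLHL13 and KLHL21 direct CUL3 to Aurora B, KLHL18 to Aurora A, KLHL22 to PLK1 and KLHL42 to the microtubule-severing protein katanin. Of these 6, KLHL22 rose, KLHL9, KLHL13 and KLHL42 fell and 2 did not pass without adjustment. Over all genes 27.2% rose and 27.6% fell in that fit. With adjustment 2 were higher, 2 lower and 2 not called, where 27.6% of all genes were higher and 24.5% lower. KLHL22 alone had the same call in both fits, as did 32.6% of all genes. KLHL9 was at 33.2 and 29.7 CPM in the F133V libraries against 46.4 and 47.2 CPM, but its log2 fold change went from -0.57 to -0.02 on adjustment. Of the mRNAs of the proteins they act on, AURKA was lower in both fits (-0.25 and -0.23). So was KATNA1, a katanin gene (-0.37 and -0.35). AURKB (-0.04 and -0.29) and PLK1 (-0.10 and -0.32) were called lower only after adjustment.

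KLHL13 and KLHL15 were the 2 members whose call turned direction. KLHL13 was at 8.17 and 7.08 CPM in the F133V libraries and at 9.88 and 9.53 CPM in the wild-type libraries, a log2 fold change of -0.35 ± 0.11, but of 0.32 ± 0.091 after adjustment (edgeR, BH-adjusted p = 0.008696 and 0.002861). KLHL15, an adaptor for the phosphatase subunit encoded by PPP2R5B and for the DNA end resection factor encoded by RBBP8, was at 15.7 and 14.3 CPM against 16.8 and 19.1 CPM. Its log2 fold change was -0.25 ± 0.091, and 0.41 ± 0.070 after adjustment (edgeR, BH-adjusted p = 0.02331 and 5.857e-06). Both genes are on the X chromosome and have transcripts of low GC content, 36.4% and 37.2%, and no direction can be given for either. RBBP8 itself fell in both fits, from 125 and 123 CPM in the wild-type libraries to 71.5 and 59.4 CPM in the F133V libraries (-0.92 ± 0.076, and -0.45 adjusted). Turned calls made up 3.78% of all genes fitted. KLHL5, the KLHL gene of highest level per kilobase, was at 163 and 148 CPM in the F133V libraries against 162 and 169 CPM, which overlap. Its log2 fold change of -0.09 did not pass, whereas 0.38 after adjustment did (edgeR, BH-adjusted p = 0.2362 and 4.804e-12).

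KLHL12, which enlarges COPII coats for collagen export through SEC31A, was among the 11 members called in neither fit. It was at 83.6 and 80.1 CPM in the F133V libraries against 87.5 and 89.7 CPM, a log2 fold change of -0.11 ± 0.064, and SEC31A had -0.03. KLHL2 and KLHL3 both target WNK kinases. KLHL2 was lower only without adjustment (-0.44) and KLHL3 higher only with it (0.37), while WNK1 fell (-0.30, and -0.22 adjusted) and WNK4 rose (0.89, and 0.64 adjusted) in both fits. KLHL20, an adaptor for DAPK1, PML and ULK1, fell by 0.35 on the log2 scale without adjustment and had 0.02 with it. DAPK1, a death-associated kinase, rose from 15.0 and 15.0 CPM in the wild-type libraries to 25.6 and 23.97 CPM in the F133V libraries (0.72 ± 0.083, and 0.64 adjusted). ULK1 and PML also rose in both fits, by 0.46 and 0.37 unadjusted. KLHL25, an adaptor for the translation repressor encoded by EIF4EBP1, rose by 0.29 and had 0.07 after adjustment, and EIF4EBP1 went from 0.40 to 0.03.

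**Figure D5:**
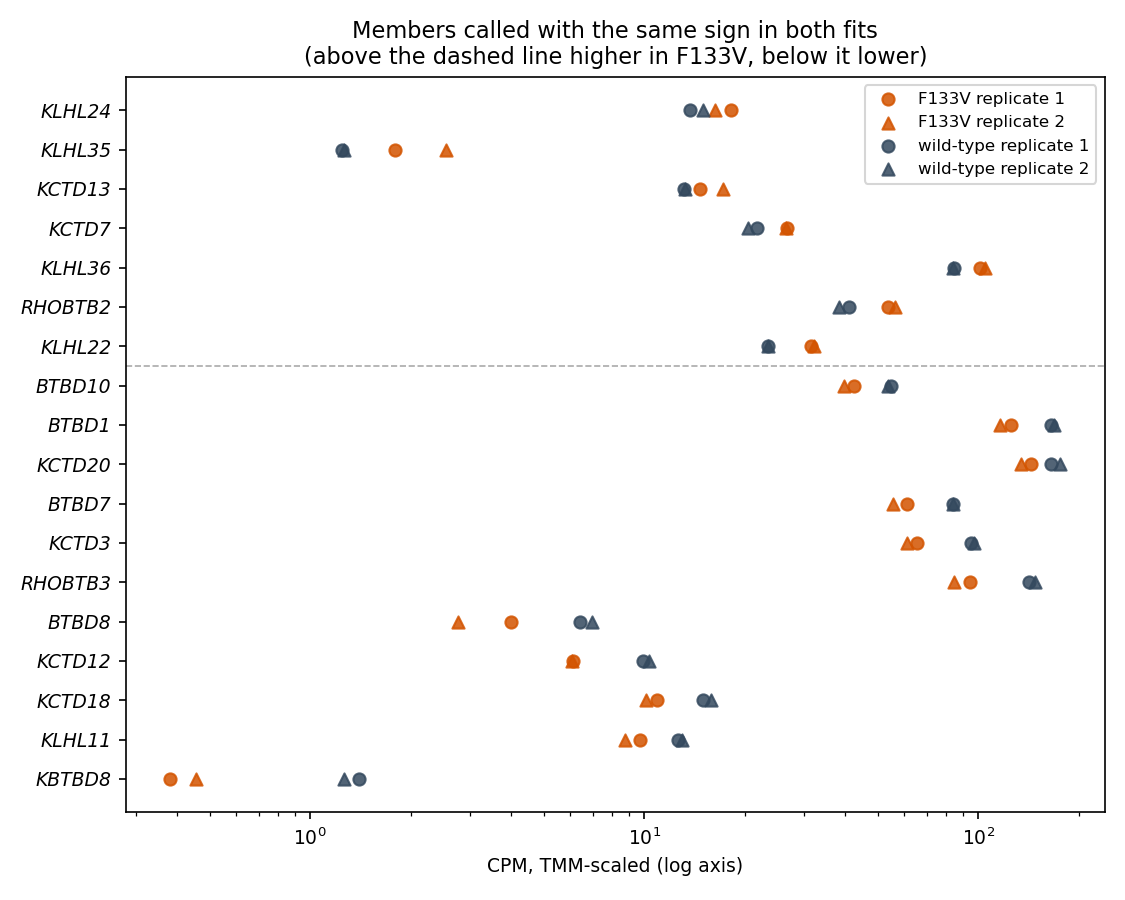
CPM of the 18 members called with the same sign in both fits (horizontal log axis) in each of the 4 libraries, with the 7 higher members above the dashed line and the 11 lower members below it. For every one of the 18 the F133V points lie on 1 side of the wild-type points, as for 78% of all genes tested. The 18 were picked by tests on these same values, so the separation is no further support.

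Promoters are printed for the 2 rises and the 2 falls of lowest adjusted p (adjusted fit) among these 18, to show how unlike they are in sequence. Each is the 250 bases before the RefSeq start on GRCh38.p14, which need not be the start used in these cells. Of the 82 members 65 were in the RefSeq promoter table, 49 of them tested. Capitals mark matches, on either strand, to the motifs AP-1 (TGANTCA), EGR (GCGNGGGCG), CRE (TGACGTCA), E-box (CACGTG) and ETS (CCGGAAG), which do not overlap in these promoters. The positions are chr3:183635373-183635622 for KLHL24, chr16:84648261-84648510 for KLHL36, chr5:95731086-95731335 for RHOBTB3 and chr1:215567054-215567303 for KCTD3, all on the plus strand.
KLHL24: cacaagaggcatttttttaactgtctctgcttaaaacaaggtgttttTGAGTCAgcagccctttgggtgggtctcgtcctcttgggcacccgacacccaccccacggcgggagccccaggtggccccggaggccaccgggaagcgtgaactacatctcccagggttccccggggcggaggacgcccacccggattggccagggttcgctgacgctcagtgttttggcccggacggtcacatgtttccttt
KLHL36: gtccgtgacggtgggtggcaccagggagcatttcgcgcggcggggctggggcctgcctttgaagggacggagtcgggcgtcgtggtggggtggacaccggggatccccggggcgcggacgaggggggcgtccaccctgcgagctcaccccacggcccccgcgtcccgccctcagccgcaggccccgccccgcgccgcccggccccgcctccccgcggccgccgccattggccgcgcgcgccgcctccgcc
RHOBTB3: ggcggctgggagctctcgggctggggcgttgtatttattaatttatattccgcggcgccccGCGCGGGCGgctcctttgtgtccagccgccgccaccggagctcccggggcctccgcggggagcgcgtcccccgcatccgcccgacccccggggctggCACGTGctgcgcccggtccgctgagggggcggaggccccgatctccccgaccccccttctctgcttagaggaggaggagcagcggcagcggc
KCTD3: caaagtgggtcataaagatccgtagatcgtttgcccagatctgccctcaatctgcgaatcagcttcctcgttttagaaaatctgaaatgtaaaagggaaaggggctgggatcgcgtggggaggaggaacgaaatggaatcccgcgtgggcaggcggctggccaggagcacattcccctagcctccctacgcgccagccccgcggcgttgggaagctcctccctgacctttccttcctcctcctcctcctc
KLHL24 holds an AP-1 match, RHOBTB3 an EGR and an E-box match, and KLHL36 and KCTD3 hold none of the 5 motifs. Their GC contents are 60.8%, 80.8%, 73.6% and 57.6% in the order printed. Over the 49 tested members, AP-1 was found in 6 (12.2%) and EGR in 10 (20.4%), against 6.60% and 8.25% of 27305 promoters. Those 27305 were taken without a filter for tested or protein-coding genes, so the 2 sets are unlike. The median promoter GC content also differed, 68.8% against 58%, and its part in the motif shares was not tested. CRE was found in 2.04% against 1.77%, E-box in 6.12% against 6.49% and ETS in 14.3% against 8.82%. Among the members called in both fits, AP-1 was found in 1 of 6 higher and 2 of 9 lower members and EGR in 1 of 6 and 3 of 9. The median promoter GC content of these 6 and 9 members was 71% and 70.4%.

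Genes around the families were read in the same fits. Of a list of 20 genes outside the naming rule, 18 were tested. Without adjustment 5 rose, 6 fell and 7 did not pass, where 27.2% of all genes rose and 27.6% fell. In both fits 4 rose and 2 fell, against 17.6% and 14.9% of all genes. The list was drawn up as BTB adaptors, but it holds KLHDC10, a Kelch protein of CUL2 ligases that has no BTB domain. The rises in both fits were SPOP, ABTB1, ABTB2 and KLHDC10, so that 3 of the 4 were of BTB proteins, and the falls were IBTK and ANKFY1. ABTB1 was at 15.4 and 16.8 CPM in the F133V libraries against 11.0 and 10.2 CPM (0.61 ± 0.093, and 0.38 adjusted), and ABTB2 at 26.6 and 29.5 CPM against 20.0 and 20.2 CPM (0.48 ± 0.081, and 0.24 adjusted). IBTK, an inhibitor of Bruton tyrosine kinase with BTB domains, was at 78.0 and 66.3 CPM against 127 and 130 CPM (-0.83 ± 0.073, and -0.17 adjusted). KEAP1, the adaptor for NFE2L2, did not pass without adjustment (0.10) and was called lower with it (-0.17), and NFE2L2 fell in both fits (-0.62, and -0.54 adjusted). SPOPL, the paralog of SPOP, fell by 0.84 on the log2 scale without adjustment and had -0.13, not called, with it.

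Of 25 genes of the CUL3 core and of NEDD8 conjugation, which switches cullins on, 9 did not pass. The list had 2 rises and 14 falls, against 27.2% and 27.6% of all genes. After adjustment 6 were higher and 9 lower, against 27.6% and 24.5% of all genes. In both fits 1 was higher and 6 lower, against 17.6% and 14.9% of all genes, and the calls of UBE2M, ARIH1 and COPS5 turned direction, 3 of 25 against 3.78% of all genes. The list's median moved from -0.28 to -0.08. NAE1 and UBA3, the subunits of the NEDD8-activating enzyme, were both lower in both fits. NAE1 was at 77.0 and 67.8 CPM in the F133V libraries against 127 and 124 CPM (-0.79 ± 0.069, and -0.39 adjusted), and UBA3 at 57.3 and 51.8 CPM against 86.2 and 87.7 CPM (-0.67 ± 0.069, and -0.19 adjusted). CAND1, which exchanges cullin adaptors, was at 154 and 133.02 CPM against 230 and 234 CPM (-0.69 ± 0.067), but its adjusted value was -0.08, near the threshold (edgeR, BH-adjusted p = 0.04804). DCUN1D5, a NEDD8 ligase subunit, had -0.29 and -0.36 in the 2 fits, and COPS7B, of the COP9 signalosome that removes NEDD8, had 0.16 and 0.11. DCUN1D5 did not pass without wild-type replicate 1 (-0.27 unadjusted). Of 35 known substrates and partners of these adaptors, 34 were tested, and 13 of these did not pass without adjustment. Another 11 rose and 10 fell, against 27.2% and 27.6% of all genes. In both fits 6 were higher and 9 lower, 44.1% of the list against 32.6% of all genes (17.6% higher and 14.9% lower). The list's median was 0.05 unadjusted and -0.06 adjusted. TOP1, the topoisomerase bound by BTBD1 and BTBD2, fell from 186 and 187 CPM in the wild-type libraries to 129 and 123 CPM in the F133V libraries (-0.57 ± 0.060, and -0.23 adjusted).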

How the data were processed

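Total RNA of DU145 cells was sequenced as single reads of 75 bases, per the labels' protocols, in 2 wild-type and 2 F133V libraries. The deposited values are raw counts of reads for each gene, which the authors made with TopHat2 2.0.10 and HTSeq 0.6.0 on hg38, per the submitters' processing notes; the annotation release and strand setting were not given in the sources used. Reads assigned to no gene stayed out of library sizes: those over no feature were 6.12% to 6.53%, those with several alignments 13.6% to 16.6% and those over several genes 3.50% to 3.73% of all reads.

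Tests used edgeR 4.0.16 under R 4.3.3 (filterByExpr defaults, TMM, quasi-likelihood F-test, two-sided, BH threshold 0.05, 2 residual degrees of freedom). An SE is the fold change over the square root of F. The adjusted fit has an offset for each gene and library. It is a smooth curve of how far log2 CPM lies from its average over libraries, on GC content and log2 length of the longest GENCODE 29 transcript (mgcv 1.9.3, basis dimension 8, fitted where mean log2 CPM exceeds 2), less its median, which also removes any real difference that follows GC content. Both fits were tested on simulated data. The coefficient of variation was 4.64%, and 2.46% adjusted. Replicates differed by more than sampling noise in both genotypes (chi-square over degrees of freedom 7.68 and 1.64).

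Symbols came from a gene name table and positions from GENCODE 29 on GRCh38. Members, lists, motifs and the rule for named genes were chosen with earlier results of these data known. The rule names members called in both fits, members whose call turns, the family leaders by level, up to 4 genes per list, SPOP and CUL3; other genes were chosen after their values were seen. Near-identical proteins were not compared; shared transcript stretches were used instead. Alternatives were RLE and upper-quartile scaling, DESeq2 1.42.0, no filter, a replicate block and each library left out.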

Additional observations from a re-analysis of the deposited data

How the results depend on the processing

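With 2 libraries a genotype, the spread between replicates limits precision. For members of few reads, such as KBTBD8 and KLHL35, depth limits it too, and the shares of both were not tested. The number of members called higher, 11, was 18 with upper-quartile scaling, 5 with DESeq2, 17 with the replicate block with GC adjustment, and from 5 to 13 without each library in turn, lowest without either wild-type replicate. Members called lower, 25, ranged from 19 to 29 over all alternatives. Members higher in both fits, 7, numbered from 3 to 7 and members lower in both fits, 11, from 8 to 13 without each library in turn, with 3 higher without either wild-type replicate. The calls of 7 of the 18 held in both fits without each library in turn, RHOBTB2 higher and BTBD7, KCTD12, KCTD18, KCTD3, KLHL11 and RHOBTB3 lower. DESeq2 kept 15 of the 18, losing KCTD13, KLHL24 and KLHL35, and RLE scaling, upper-quartile scaling and no filter kept 18 of 18. The share of higher among called members was 30.6%, 46.2% with upper-quartile scaling, 45.7% with GC adjustment and 20% with DESeq2. The sign of 40 of the 62 members was the same with GC adjustment. Among the genes followed through every alternative, it turned with that adjustment, without and with the replicate block, for KLHL13 (0.32 in both), KLHL15 (0.41 in both), KLHL5 (0.38 in both) and CUL3 (0.066 and 0.065); with upper-quartile scaling it turned for KLHL5 (0.021). Same-numbered libraries did not deviate together (correlation -0.027), so the numbers are not taken as pairs; with the replicate block 11 members were higher and 24 lower, and 8 and 12 in both fits, the last added after the data were seen. The cause of these shifts was not tested, and the share of all genes whose calls hold without each library in turn was not counted.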
